A study of Mus musculus with 6 samples.

Results

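The genes described here are 10 cell adhesion molecules of the immunoglobulin superfamily, chosen by name: Alcam and Mcam, the L1 family (L1cam, Nrcam, Nfasc and Chl1), the NCAM family (Ncam1 and Ncam2) and the DSCAM family (Dscam and Dscaml1). All 10 were found among the 34289 genes to which the deposited transcripts could be summed, and all 10 passed the filter on low counts. RNA was sequenced from postmitotic neurons of mouse cortex at embryonic day 14.5. The mutant libraries (RP58-/-, n = 3) came from embryos without a functional copy of Rp58, and the control libraries (RP58+/+, n = 3) from embryos with both copies. Rp58 is now called Zbtb18 and encodes a transcriptional repressor with zinc fingers, so the design compares neurons labelled as lacking this repressor with neurons that have it. One of the mutant libraries, mutant 3, still held transcripts of the gene, as given below. The labels give no strain, sex or litter, nor whether libraries of the same genotype stem from different embryos. All p-values thus rest on the spread between libraries, which may be technical. The sources used here do not give how the neurons were isolated.

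Adhesion molecules of this superfamily carry extracellular immunoglobulin domains, most also carry fibronectin type III domains, and they bind the same protein or a partner on a neighbouring membrane. In the developing cortex they hold growing axons together in bundles, guide migrating neurons and help to select synaptic partners. The L1 family anchors to the cytoskeleton through ankyrin, NCAM is modified by polysialic acid, which weakens its adhesion, and DSCAM proteins mediate self-avoidance in the retina.

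Several of these genes are spliced into forms that differ by short exons, and 3 such exons separate the deposited transcript models of Alcam and L1cam. They are shown because the counts of both genes were divided over models with and without them. Sequences are from the GENCODE vM21 transcripts (GRCm38), 5′ to 3′ on the strand of the gene, with the exon in capitals between 15 bases of each neighbouring exon. All 3 exons lie within coding sequence, and each has a length that is a multiple of 3, so that skipping them keeps the reading frame. The Alcam exon at chr16:52268790-52268828 (minus strand, 39 bases) is present in Alcam-201 and skipped in Alcam-207. The L1cam exon at chrX:73867022-73867036 (minus strand, 15 bases) is present in L1cam-202 and L1cam-203 and skipped in L1cam-201. The L1cam exon at chrX:73855652-73855663 (minus strand, 12 bases) is present in L1cam-202 and skipped in L1cam-203 and L1cam-201. The longer of these L1cam exons encodes part of the extracellular portion and the shorter one part of the cytoplasmic tail, and neurons are known for including both.
Alcam exon of 39 bases: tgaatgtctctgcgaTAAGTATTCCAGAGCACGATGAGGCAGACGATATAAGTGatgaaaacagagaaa
L1cam exon of 15 bases: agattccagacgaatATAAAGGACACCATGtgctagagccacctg
L1cam exon of 12 bases: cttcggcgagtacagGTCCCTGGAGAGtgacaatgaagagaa

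Promoter windows of RefSeq (GRCm38.p6, 250 bases before to 50 after a transcription start) were found for 8 of the 10 genes, all but Ncam1 and Dscaml1. They were searched on both strands for CATCTG, the core of the motif reported for RP58, and for the longer ACATCTGG, which contains that core. The core was found in 17.2% of 32851 windows of all genes, and the longer motif in 1.07%. Among the 8 genes the core was found in L1cam, in both of its overlapping windows, and the longer motif in none. The L1cam match lies at chrX:73880907-73880936 (minus strand), with the reverse complement of the core in capitals. A match is a string of letters, and neither a match nor its absence from a window says whether the protein binds.
L1cam promoter: tgcggccaggttCAGATGaaacaaggaacg

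Total estimated counts lay between 53044306 and 56472475 in the mutant libraries and between 34645505 and 75892649 in the control libraries. The libraries were of 2 types, told apart by the deposited effective lengths. In mutant 1, mutant 2 and control 1 the length of every long transcript exceeded its effective length by exactly 249 bases (the fixed-length type). In mutant 3, control 2 and control 3 this difference was between 133.7 and 139.2 bases (the estimated-length type). The labels do not name these types, and the sources used here do not give what made them. Because the types cross the genotypes unevenly, genotypes were compared with a term for library type. The common biological coefficient of variation was 0.186 with the term and 0.701 without it. Zbtb18 had 46.7, 45.7 and 538 CPM (counts scaled to library size with TMM factors) in mutants 1, 2 and 3, against 1902, 1587 and 1697 CPM in controls 1, 2 and 3. Mutant 3 thus retained more Zbtb18 than the other mutants, at 0.328 times the mean of the controls of its library type. Calls of the members, and of related genes named by the rule stated with the processing, that change without mutant 3 are given beside each result. Counts of calls without it are given only in part. Smaller shifts in the lists of related genes are not all given. The counts without it for the marker lists and for all genes tested are not given separately, so a count without such a remark is not shown to be stable. Markers of postmitotic neurons, 8 genes, summed to 4930 to 7690 CPM in mutants and 6035 to 9068 CPM in controls. Of these, 2 rose and 3 fell. Within each library type the mutant sums were lower. They were 7690 and 6805 against 9068 CPM in the fixed-length type, and 4930 against 6385 and 6035 CPM in the estimated-length type. Markers of glutamatergic cortical neurons, 6 genes, summed to 1554 to 2185 CPM in mutants and 2865 to 3325 CPM in controls, and 5 of them fell while 1 rose. Markers of intermediate progenitors, 5 genes, summed to 407 to 513 CPM in mutants and 174 to 260 CPM in controls, and 3 of them rose. Markers of radial glia, 8 genes, summed to 100.4 to 211 CPM in mutants and 107 to 237 CPM in controls. Of these, 3 rose and 3 fell. Vim alone had 25.5 to 100.8 CPM in mutants and 39.05 to 142 CPM in controls, so this sum says little about the others. Sox2, Pax6, Hes1 and Hes5 were higher in every mutant than in any control, Slc1a3 was lower, and Nes, Vim and Fabp7 overlapped. The part of such shifts in the results below was not tested, and in bulk libraries fewer cells of a type and less RNA per cell cannot be told apart.

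Loss of Zbtb18 was accompanied by changes in 4 of the 10 adhesion genes, in opposite directions. Alcam and L1cam fell, Nrcam and Dscaml1 rose, and the other 6 did not pass the test. Genes were called at an adjusted p under 0.05 (quasi-likelihood test of edgeR, adjusted by Benjamini-Hochberg over all 16985 genes tested). By that rule 7.92% of all genes tested were higher and 7.01% lower in mutants, against 2 of 10 members in each direction. The median log2 fold change of the members was -0.23, and that of all genes tested was -0.0008. Nrcam, Dscaml1 and Alcam changed more than 2-fold, 2 members higher and 1 lower, against 4.74% and 2.67% of all genes tested. Mutant and control libraries did not overlap for the same 4 members, 2 above (8.8% of all genes tested) and 2 below (6.64%), together 15.4% of all genes. By the looser rule that the groups stay apart in the same direction within each library type, 2 members lay above (24% of all genes), 5 below (26.6%) and 7 in either direction (50.6%), so that count says little about the members. Without the term for library type, Alcam alone passed, and L1cam, Nrcam and Dscaml1 did not (adjusted p = 0.168, 0.134 and 0.192). Without the term 0.765% of all genes tested were lower and 1.59% higher, and 4 members had an unadjusted p under 0.05 in edgeR, as did 9.67% of all genes tested. Within each library type, with the spread pooled over both types because each holds 1 genotype with a single library, the same 4 members were called in the same directions. Of all genes tested, 6.05% were called higher and 3.41% lower in the fixed-length type, together 9.46%. In the estimated-length type these shares were 4.6%, 3.32% and 7.92%. The genotype effect differed between the types for 0.153% of genes (0.0353% with a higher and 0.118% with a lower effect in the estimated-length type) and for 0 of the 10 members in the edgeR test of that difference. There Nrcam alone of the members had an unadjusted p under 0.05 in the edgeR test, as did 7.19% of all genes tested, and its difference of -0.86 had an adjusted p of 0.668.

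**Figure D1:**
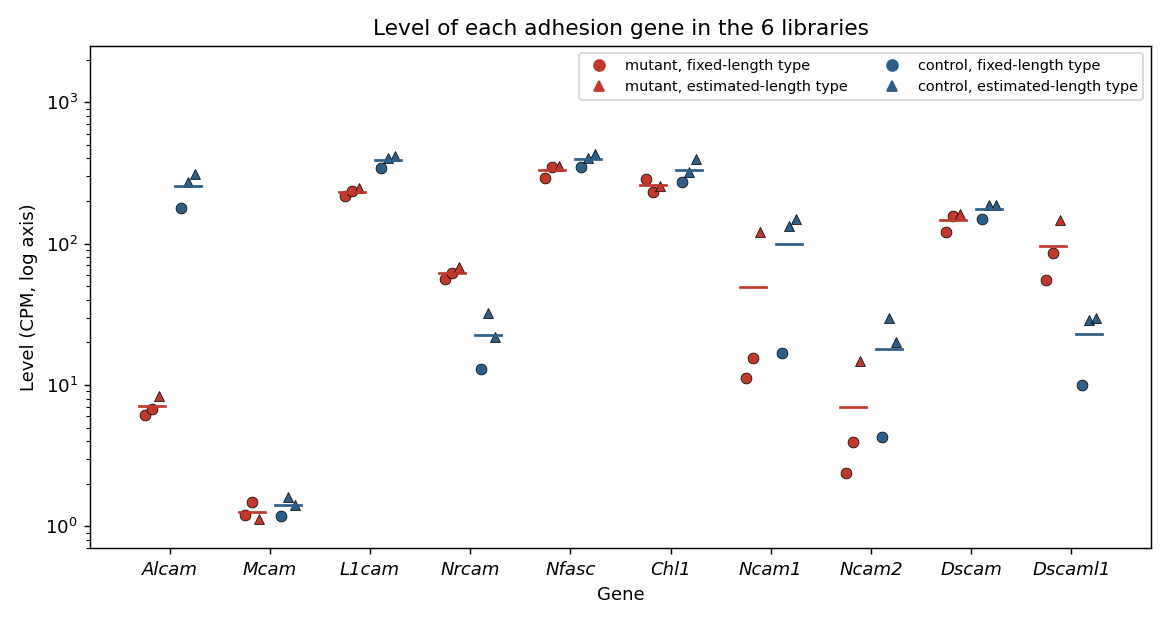
Level of each gene in CPM on a log axis, with a point for each library, mutants left of controls, and a bar at the mean of 3 libraries. Circles are libraries of the fixed-length type and triangles of the estimated-length type. Alcam lies between 6.14 and 8.32 CPM in mutants and between 179 and 310 CPM in controls.

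Alcam, an adhesion molecule of growing axons that binds itself and CD6, had 6.14, 6.75 and 8.32 CPM in mutants 1, 2 and 3, against 179, 275 and 310 CPM in controls 1, 2 and 3. Every mutant library lay far below every control library. These levels rested on 318, 361 and 411 estimated counts in the mutants and 5617, 18453 and 13070 in the controls. Alcam was 31.0-fold lower in mutants, with a log2 fold change of -4.95 ± 0.13 (SE), a 95% interval from -5.25 to -4.65 and adjusted p = 8.33e-06. It ranked 6 from the lowest among the 16985 log2 fold changes. The log2 fold change was -4.78 in the fixed-length type and -5.13 in the estimated-length type. The call was kept whichever library was left out, with adjusted p up to 0.000473, and up to 0.0367 without the type term. Mutant 3, which retained more Zbtb18, had an Alcam level close to those of the other mutants.

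Mcam, the relative of Alcam that is known from vessel walls and melanoma, stayed near the lower end of detection. It had 1.20, 1.48 and 1.13 CPM in mutants 1, 2 and 3 against 1.18, 1.62 and 1.42 CPM in controls 1, 2 and 3, and the groups overlapped. The estimated counts behind these values ran from 56 to 79 in mutants and from 37 to 109 in controls. The log2 fold change was -0.13 ± 0.27 with a 95% interval from -0.76 to 0.51 (adjusted p = 0.803), so a change of moderate size in either direction was not detectable at this depth. Its sign turned without mutant 3 and in the fixed-length type, where the log2 fold change was 0.18. The 9 endothelial markers summed to 1.53 to 5.51 CPM in mutants and 0.858 to 2.87 CPM in controls, and the 7 mural markers to 1.29 to 2.59 CPM in mutants and 1.21 to 3.65 CPM in controls.

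The L1 family was divided. L1cam, the founding member and a receptor for axon bundling, had 218, 234 and 246 CPM in mutants 1, 2 and 3, against 344, 403 and 418 CPM in controls 1, 2 and 3. The groups did not overlap, and the highest mutant stayed below the lowest control. L1cam was 1.59-fold lower in mutants (log2 fold change -0.67 ± 0.09, 95% interval -0.88 to -0.46, adjusted p = 0.00317). The values were -0.60 and -0.74 in the fixed-length and estimated-length types. The call was kept whichever library was left out, with adjusted p up to 0.0390. It was lost in limma on the deposited TPM values (log2 fold change -0.53, adjusted p = 0.0760).

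Nrcam, which links axons to ankyrin and takes part in semaphorin responses, moved the opposite way. It had 56.4, 61.7 and 67.8 CPM in mutants 1, 2 and 3, against 13.0, 32.3 and 21.9 CPM in controls 1, 2 and 3. All mutants lay above all controls, and the controls varied more among themselves than the mutants did. Nrcam was 3.33-fold higher in mutants (log2 fold change 1.74 ± 0.24, 95% interval 1.16 to 2.31, adjusted p = 0.00442). Within the fixed-length type the log2 fold change was 2.18, and within the estimated-length type 1.32. Leaving out each library gave 1.34 to 2.18 on the log2 scale, with adjusted p up to 0.0244.

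Nfasc, which organises the axon initial segment and the node of Ranvier in mature neurons, had 290, 346 and 352 CPM in mutants 1, 2 and 3 and 346, 406 and 431 CPM in controls 1, 2 and 3. The groups overlapped over all libraries, although within each type the mutants were lower. The log2 fold change was -0.19 ± 0.10 (95% interval -0.44 to 0.06, adjusted p = 0.288). Chl1, the close homolog of L1 that directs migration and dendrites of deep-layer neurons, had 288, 232 and 255 CPM in mutants 1, 2 and 3 and 274, 322 and 395 CPM in controls 1, 2 and 3. In the fixed-length type one mutant lay above and the other below the single control. Its log2 fold change was -0.28 ± 0.15 (95% interval -0.65 to 0.09, adjusted p = 0.280). These intervals leave out a change of 2-fold for both genes, and neither passed the test.

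**Figure D2:**
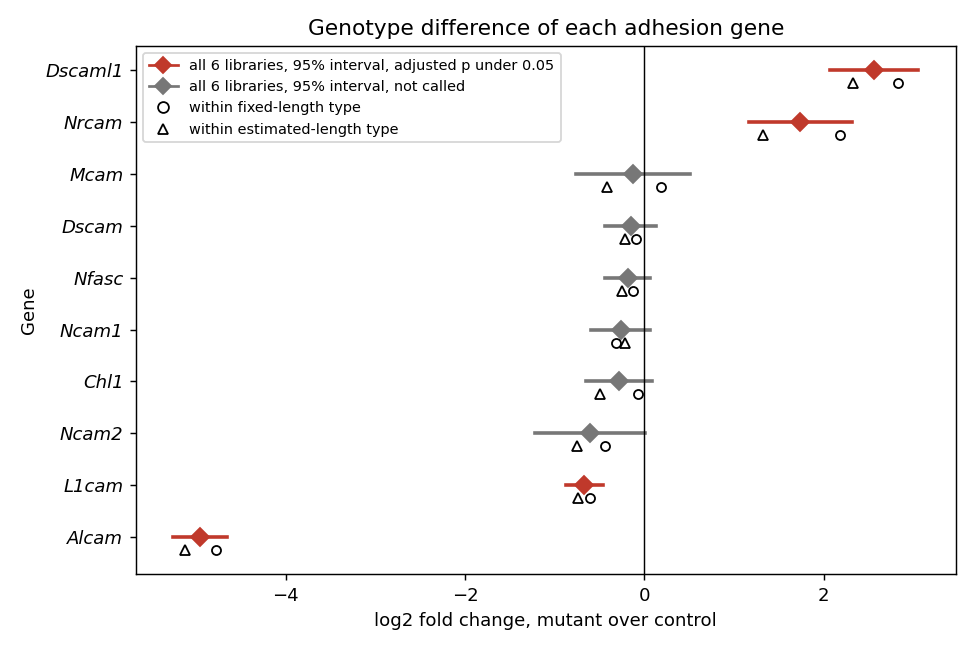
Log2 fold change of each gene, mutant over control, from the fit over all 6 libraries with a term for library type (diamonds, with 95% intervals, red where adjusted p is under 0.05). Open circles and triangles give the values within the fixed-length and the estimated-length type. Dscaml1 and Nrcam lie at 2.56 and 1.74, and Alcam lies at -4.95.

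The NCAM genes differed between library types far more than between genotypes. Ncam1, the neural cell adhesion molecule that carries polysialic acid, had 11.3, 15.6 and 122 CPM in mutants 1, 2 and 3, against 16.8, 133 and 150 CPM in controls 1, 2 and 3. The 3 libraries of the estimated-length type averaged 135 CPM and the 3 of the fixed-length type 14.5 CPM. Within each type the mutants were the lower ones. With the term the log2 fold change was -0.27 ± 0.14 (95% interval -0.59 to 0.06, adjusted p = 0.255), and without it -1.01 ± 1.16.

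Ncam2, an adhesion molecule known from olfactory axons, had 2.39, 3.93 and 14.8 CPM in mutants 1, 2 and 3, against 4.29, 29.7 and 20.0 CPM in controls 1, 2 and 3. Again the libraries of the estimated-length type were the high ones in both genotypes. The log2 fold change was -0.60 ± 0.26 (95% interval -1.22 to 0.01, adjusted p = 0.174). The difference between types, estimated over fixed, was 3.12 on the log2 scale for Ncam1 and 2.36 for Ncam2. It was above that of 89.1% and 83.7% of all genes tested, whose median was 0.11. For the other 8 members it lay between 0.06 for Mcam and 1.29 for Dscaml1.

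Of the DSCAM genes, one rose. Dscaml1, a paralog of Dscam with roles in neuron spacing and synapse specificity in the mouse retina, had 55.4, 86.2 and 147 CPM in mutants 1, 2 and 3, against 9.95, 28.9 and 29.8 CPM in controls 1, 2 and 3. All mutants lay above all controls, and in both genotypes the fixed-length type held the lower libraries. Dscaml1 was 5.91-fold higher in mutants (log2 fold change 2.56 ± 0.21, 95% interval 2.07 to 3.05, adjusted p = 0.000454). It reached 2.83 in the fixed-length type and 2.33 in the estimated-length type on the log2 scale. The call was kept whichever library was left out, with adjusted p up to 0.00506.

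Dscam, the Down syndrome cell adhesion molecule and a receptor reported to bind netrin, had 121, 157 and 162 CPM in mutants 1, 2 and 3, against 148, 188 and 188 CPM in controls 1, 2 and 3. The groups overlapped. The log2 fold change was -0.15 ± 0.12 (95% interval -0.44 to 0.13, adjusted p = 0.446). Its only call among the fits that left out a library came without mutant 2 (log2 fold change -0.25, adjusted p = 0.0447).

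Levels of different genes were compared per transcript length, by the deposited TPM (transcript abundance scaled by length and library) summed to genes and ranked within each library. L1cam had the highest TPM of the 10 genes in all 3 mutants and in controls 1 and 2, and ranked 2 in control 3, where Alcam was first. Alcam ranked 8, 8 and 9 in mutants 1, 2 and 3, against 2, 2 and 1 in controls 1, 2 and 3. Among all genes tested, its TPM stood at percentiles 37.4 to 38.6 in mutants and 86.0 to 97.0 in controls. Dscaml1 ranked 5 in each mutant and 8 in each control. Mcam was last in every library. Chl1 and Nfasc changed places between libraries, with 51.8, 47.9 and 10.3 TPM for Chl1 and 41.2, 56.4 and 11.3 TPM for Nfasc in mutants 1, 2 and 3, so their order was not settled. Ncam1 ranked 7, 7 and 2 in the mutants and 6, 3 and 3 in the controls, and its high ranks were those of the estimated-length type.

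**Figure D3:**
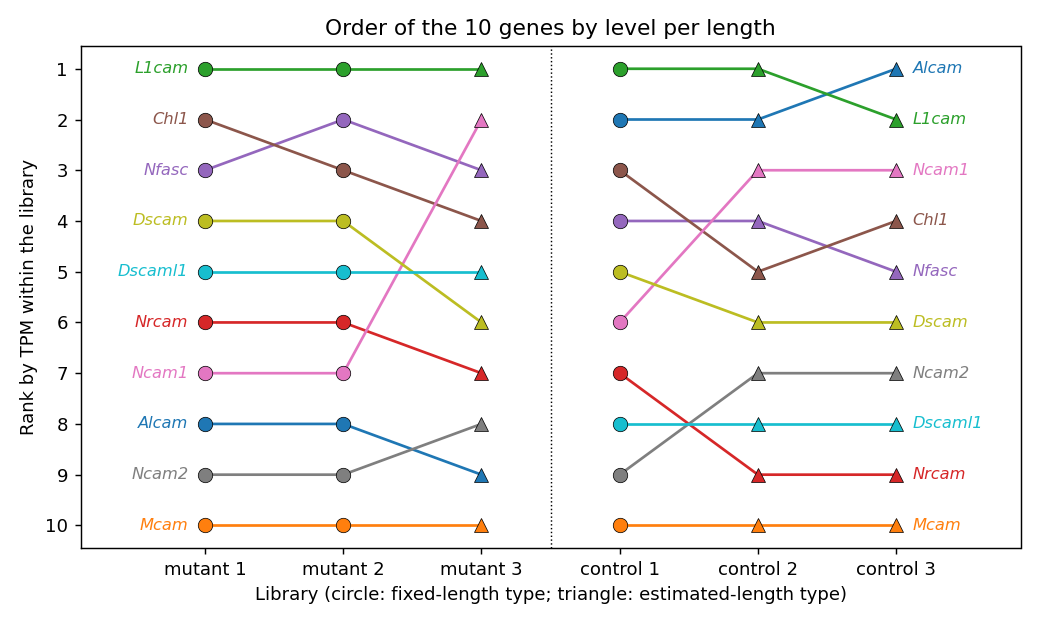
Rank of each of the 10 genes by deposited TPM within each library, with 1 for the highest level, mutants left of controls. Circles are libraries of the fixed-length type and triangles of the estimated-length type. Alcam ranks 8, 8 and 9 in the mutants and 2, 2 and 1 in the controls.

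The deposited tables held 37 transcript models of these genes, of which 28 passed the filter. In the same kind of fit over 42824 transcripts, 4 models were lower and 2 higher in mutants, against 0.637% and 1.11% of all transcripts tested (1.74% in either direction). The models that fell were all of Alcam. Alcam-201, the longest model, had 5.72, 6.21 and 4.72 CPM in mutants 1, 2 and 3, against 162, 141 and 166 CPM in controls 1, 2 and 3 (log2 fold change -4.88 ± 0.13, adjusted p = 0.00102 in the edgeR test over transcripts). Alcam-207, which skips the exon of 39 bases, had 0.684, 1.08 and 2.15 CPM in mutants and 11.8, 67.9 and 65.7 CPM in controls (-4.32 ± 0.37, adjusted p = 0.0127). The models with and without that exon thus fell together. The others that fell were Alcam-203 and Alcam-204, with adjusted p = 0.0136 and 0.0256 in the same edgeR test. Alcam-203 had 0, 0 and 0.373 CPM in mutants and 0.816, 20.4 and 26.3 CPM in controls. Alcam-204 had 0, 0 and 0.187 CPM in mutants and 0.204, 6.69 and 6.91 CPM in controls. In the fixed-length type both were thus near the lower end of detection in both genotypes. The models that rose were Dscaml1-201, the single deposited model of its gene, and Nrcam-202 (adjusted p = 0.0123 and 0.0241). Nrcam-202 had 64.5, 64.4 and 45.8 CPM in mutants 1, 2 and 3 and 13.9, 17.7 and 14.7 CPM in controls 1, 2 and 3.

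Without the type term Alcam-201 alone was called (adjusted p = 0.0228), when 0.00467% of all transcripts were lower, 0.0117% higher and 0.0163% either. Calls of single models were also less stable than those of genes: without one library, 1 to 3 models were lower and 0 to 2 higher. Without control 2, control 3 or mutant 1 a single model was lower, without control 1 or mutant 3 there were 2, and none was higher without mutant 1 or any one control. The deposited estimates come without a measure of how surely kallisto divided reads between models, so shares of models are given as they stand. Alcam-207 held 9.89%, 14.7% and 28.1% of the Alcam counts in mutants 1, 2 and 3 and 6.16%, 27.4% and 23.3% in controls 1, 2 and 3. Its share was higher in the estimated-length type in both genotypes. Alcam-207 has 1917 bases and Alcam-201 has 6036, so these models differ in more than the exon of 39 bases. Alcam-203, which includes that exon and has 1885 bases, also held a larger share in the estimated-length type in both genotypes. L1cam-202, which includes the exon of 12 bases, held 39.4%, 50.4% and 74.2% of the L1cam counts in mutants 1, 2 and 3 and 48.7%, 74.3% and 78.1% in controls 1, 2 and 3. L1cam-203, which skips it, held 52.9%, 41.6% and 13.7% in mutants and 43.8%, 16.3% and 11.95% in controls. These shares also followed library type, and the pair of models differs at both ends as well as in that exon. No L1cam model was called on its own, and L1cam-202 came nearest (log2 fold change -0.71, adjusted p = 0.0984).

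**Figure D4:**
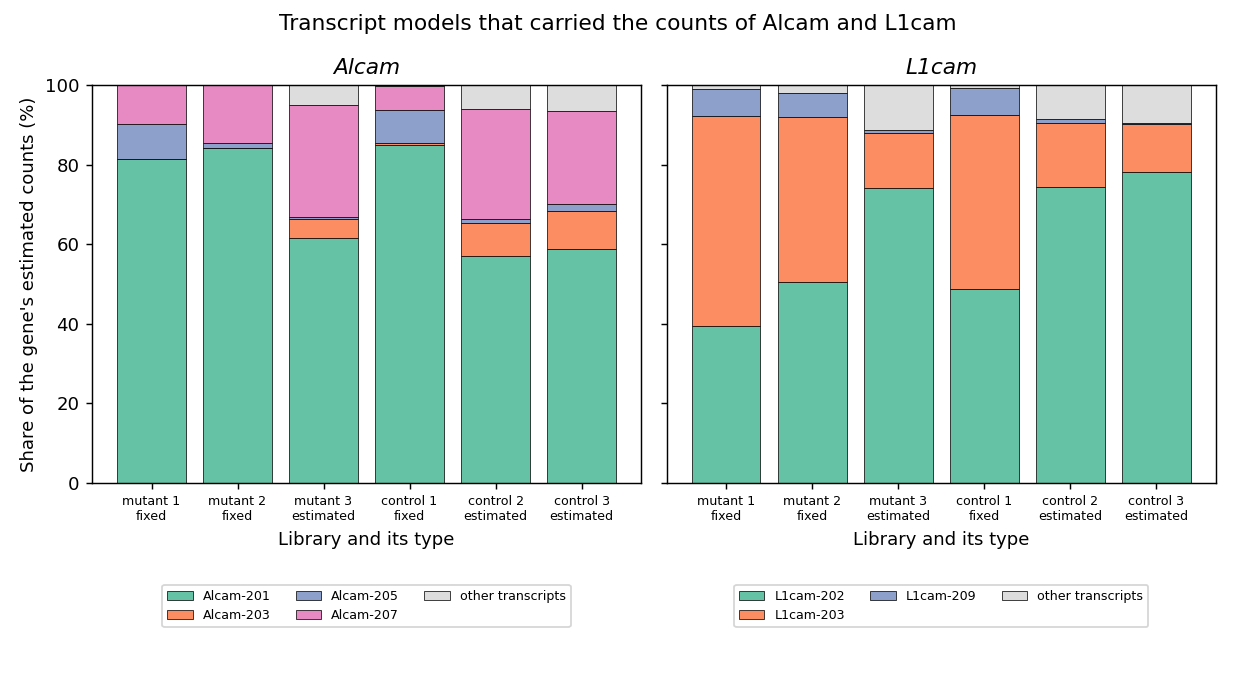
Share of the estimated counts of Alcam (left) and L1cam (right) held by each transcript model in each library, in percent, mutants left of controls. Models with under 5% in every library are joined as other transcripts. L1cam-202 holds 74.2% to 78.1% in the libraries of the estimated-length type and 39.4% to 50.4% in those of the fixed-length type.

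For Nfasc, the model Nfasc-202 held 74.98% to 77.9% of the gene's counts in mutants and 76.1% to 77.3% in controls. Its share was thus close to constant across genotypes and types, but those of the other models were not. Nfasc-203 held 10.8%, 8.91% and 22.1% in mutants 1, 2 and 3 and 1.23%, 19.2% and 19.5% in controls 1, 2 and 3. Nfasc-201 held 12.4%, 13.2% and 2.95% in mutants and 21.5%, 4.75% and 3.89% in controls. Neither was called in the fit over all 6 libraries (adjusted p = 0.595 and 0.0588, edgeR). The log2 fold change of Nfasc-203 was 2.92 in the fixed-length type, where control 1 is the only control, and -0.04 in the estimated-length type. Chl1, Dscam, Dscaml1 and Ncam1 had all but a trace of their counts in 1 deposited model each. The current annotation lists 81 models for the 10 genes, and 25 of the 37 deposited ones had the same length in it, among them all 7 of Alcam and none of Nrcam, Nfasc, Chl1, Ncam1, Dscam or Dscaml1. The isoform sequences of those 6 genes are therefore not shown.

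Genes related to the members were described by 7 lists, and calls ran in both directions in 6 of them. Their counts are to be read against the 7.92% of all genes tested that were higher and the 7.01% that were lower. Leaving out 1 library moved several of these counts by more than 1.5 times. Of 6 contactins, partners of L1 family proteins on the axon surface, 4 rose and 1 fell, with a median log2 fold change of 1.38. The 4 that rose averaged at most 9.22 CPM in mutants. Cntn2, by far the most abundant contactin, was not called (log2 fold change 0.09, adjusted p = 0.555). It had 3471 ± 694 CPM in mutants and 2902 ± 612 CPM in controls. The count of higher contactins was 1 without control 1, mutant 1 or mutant 3, 2 without control 2 or control 3, and 3 without mutant 2, while 1 was lower each time. Cntn1 fell to 9.77 ± 6.25 CPM in mutants, against 34.1 ± 10.4 CPM in controls (SD, n = 3 each, log2 fold change -1.53, adjusted p = 0.00167). Cntn5 rose to 9.22 ± 5.75 CPM, against 3.19 ± 2.23 CPM (2.16, adjusted p = 0.00376), and Cntn6 rose to 1.29 ± 0.24 CPM, against 0.110 ± 0.153 CPM (3.41, adjusted p = 0.0260). The call of Cntn6, which is close to the lower end of detection, was lost in 4 of 6 fits that left out a library: those without control 1, control 2, mutant 1 or mutant 3. Its log2 fold change was 4.40 without control 3 and 5.003 without mutant 3.

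Of the 5 IgLON genes, short adhesion molecules with a lipid anchor, 2 fell and 1 rose, with a median of -0.42. Opcml had 19.5 ± 6.12 CPM in mutants and 74.1 ± 23.3 CPM in controls, and Lsamp had 8.87 ± 1.22 and 18.4 ± 3.20 CPM (adjusted p = 0.00121 and 0.00251, edgeR). Negr1 rose to 63.6 ± 17.4 CPM in mutants, against 32.9 ± 6.33 CPM in controls (adjusted p = 0.0127), a call lost without control 1 or control 3. Of 10 tested nectins, nectin-like and junctional molecules, 1 rose and 2 fell, with a median of 0.01, but 3 rose without mutant 3, and 1 fell without mutant 3 or any one control. Nectin1 rose to 53.1 ± 9.02 CPM, against 20.3 ± 0.31 CPM (1.43, adjusted p = 0.000730), and Cadm2 fell to 11.03 ± 2.07 CPM, against 25.7 ± 4.89 CPM (-1.06, adjusted p = 0.000700). Of 22 tested other immunoglobulin adhesion genes, 3 rose and 5 fell, with a median of -0.17. Here 1 rose without control 2, 3 fell without control 2, and 2 fell without control 3 or mutant 3. Igsf21, a synaptic adhesion molecule, rose 5.76-fold to 182 ± 45.7 CPM, against 29.0 ± 3.86 CPM (adjusted p = 0.000472). Kirrel3, a synaptic adhesion molecule of the hippocampus, was 7.83-fold lower at 3.52 ± 1.41 CPM, against 25.1 ± 4.54 CPM, and Mdga1, an anchored regulator of neuroligins, was 2.75-fold lower (adjusted p = 0.00121 and 0.000593).

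Among 18 cytoplasmic partners and scaffolds, 2 rose and 4 fell, with a median of -0.15. None rose without mutant 3 or any one control and 1 without mutant 1, while 2 fell without control 1 and 8 without mutant 2. Ank1, one of the ankyrins, fell to 3.89 ± 1.93 CPM in mutants, against 23.5 ± 11.9 CPM in controls (log2 fold change -2.08, adjusted p = 0.00256). The more abundant ankyrins Ank3 and Ank2, with 402 and 60.3 CPM on average in controls, were not called. Their log2 fold changes were -0.06 and 0.19 (adjusted p = 0.875 and 0.392). Among 13 tested extracellular partners and co-receptors, 5 rose and 3 fell, with a median of 0.19, but 1 rose without mutant 3, and 2 without control 2 or control 3. Nrp1, the semaphorin receptor that works with L1 as co-receptor, was 4.71-fold lower at 39.6 ± 11.9 CPM, against 192 ± 35.3 CPM (adjusted p = 0.00138). Its ligand gene Sema3a was 2.36-fold higher at 32.1 ± 6.20 CPM, against 14.1 ± 2.98 CPM (adjusted p = 0.00686), a call lost without mutant 3. Ptprz1, a receptor phosphatase that binds contactin and NCAM, was 4.15-fold lower (adjusted p = 0.000108). Of 9 enzymes that add polysialic acid or other sugars or cut adhesion molecules from the surface, 2 rose and none fell, with a median of 0.23, but 1 rose without control 1 and 4 without mutant 2. Of these, Mmp14, a membrane-bound metalloprotease, was 3.20-fold higher at 167 ± 36.7 CPM, against 45.2 ± 16.2 CPM (adjusted p = 0.000101). Without the type term the calls in these lists were Nectin1 and Igsf21, which rose, and Mdga1, Kirrel3 and Nrp1, which fell.

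**Figure D5:**
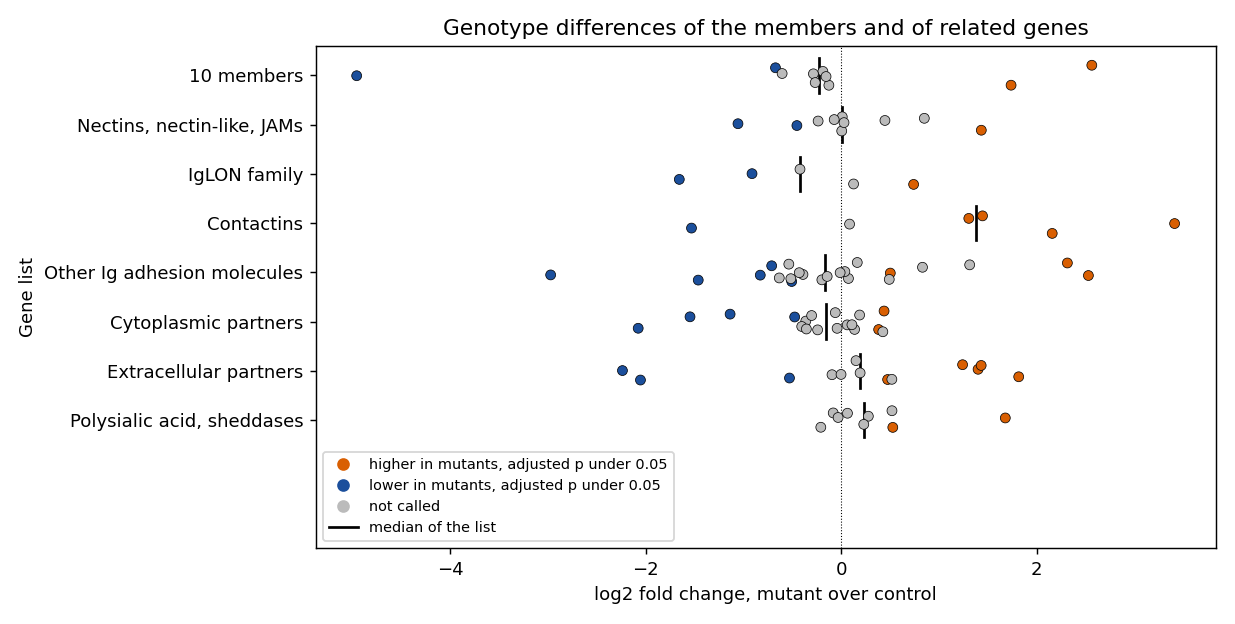
Log2 fold change, mutant over control, of the 10 members and of each tested gene in 7 lists of related genes. Colours mark genes called higher or lower at adjusted p under 0.05, and black bars are list medians. The contactins have a median of 1.38, and Alcam at -4.95 lies furthest to the left among the genes shown.

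The genes whose pattern over the 6 libraries was most like that of Alcam were found by the root-mean-square difference in log2 CPM, each gene centred on its own mean. The nearest 5 of all genes tested were Hs3st5 (0.26), Prickle1 (0.31), Mndal (0.42), Inhba (0.49) and Gas7 (0.53). Gas7, an F-BAR protein of neurite outgrowth, was the most abundant of them, with 7.95, 7.86 and 10.6 CPM in mutants 1, 2 and 3, against 134, 169 and 157 CPM in controls 1, 2 and 3. Prickle1, a planar cell polarity gene, had 0.618, 0.842 and 1.30 CPM in mutants and 20.1, 41.6 and 62.3 CPM in controls. Inhba encodes an activin subunit, and Mndal is an interferon-inducible gene with close paralogs whose shared reads make its counts uncertain. Both stayed under 4 CPM in every library, with 0 to 0.101 CPM in mutants. Hs3st5 had 0.174, 0.168 and 0.142 CPM in mutants and 4.04, 7.13 and 10.1 CPM in controls. For Inhba, Mndal and Hs3st5 the size of the fold change is thus uncertain, as their mutant levels were near the lower end of detection. All 5 were called with each library left out, although the log2 fold change of Inhba of -4.64 became -3.90 without control 1 and -5.42 without mutant 3, and that of Hs3st5 of -4.84 became -5.57 without control 1. The measure uses the genotype difference itself, so it finds genes that fell by about as much.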

How the data were processed

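RNA from 6 libraries was prepared with a stranded total RNA kit and sequenced on 1 instrument model, per the labels. The authors deposited, per the file headers, an estimated count, a TPM value, the length and the effective length of each of 97251 transcripts. FastQC, kallisto and mm9 are named without versions, per the submitters' processing notes. The deposited estimated counts carry no further normalization, and the deposited TPM values are scaled by effective length and total. The deposited lengths are in bases and were used to tell the 2 library types apart.

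Of the transcripts, 84637 (87.0%) matched GENCODE vM21 (GRCm38) and were summed to 34289 genes and rounded. The other 12614 held 6.85% to 8.58% of counts, may include models of the members, and were not used. Coordinates are those of GRCm38 alone. edgeR 4.0.16 (R 4.3.3) was fitted with TMM, filterByExpr, a prior count of 2 and terms for library type and genotype, and SE is the log2 fold change over the square root of F. Alternatives used DESeq2 1.42.0, limma 3.58.1 on log2(TPM + 0.1), no type term, no filter, and each library left out. The code of the fit was also run on counts simulated from its own fitted means and spread with the same design. Such a run cannot show how well the model suits these libraries.

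The members, the related and marker lists, the use of a type term and the rule for named genes were chosen with earlier results of these data known. Named genes were the 10 members, Zbtb18, up to 3 called genes of each related list with the smallest p whose groups did not overlap, and the 5 genes most like Alcam. Cntn2, Ank2 and Ank3 lie outside this rule and were added after their values were seen. CPM is given as mean ± SD over 3 libraries or per library, numbered in order of deposition. Depth limits Mcam most.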

Additional observations from a re-analysis of the deposited data

Results flagged for a closer look

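Zbtb18 itself differed in its genotype effect between the library types. Its log2 fold change was -5.36 in the fixed-length type and -1.61 in the estimated-length type, a difference of 3.75 (estimated minus fixed, adjusted p = 0.00963, edgeR quasi-likelihood test of the interaction). The estimated-length type holds a single mutant, mutant 3, so library type and this library cannot be told apart. Over all 6 libraries the log2 fold change was -3.48 ± 0.81 (adjusted p = 0.0337), a call lost without control 3, mutant 1 or mutant 2, and it was -5.36 without mutant 3 and -1.59 without control 1. None of the 10 adhesion genes differed between types in this test at adjusted p under 0.05, and 1 did at an unadjusted p under 0.05, as did 7.19% of all genes tested.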

How the results depend on the processing

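With the type term, 2 members were called higher and 2 lower, and DESeq2, DESeq2 size factors, no filter and the fits within each type kept those counts. Limma on TPM gave 2 and 1. Without the term 0 were higher and 1 lower. Leaving out each library, with and without the term, gave 0 to 2 higher and 1 to 3 lower, and with the term 2 higher each time. For transcripts of members, the counts without the term were 0 higher and 1 lower, and leaving out each library gave 0 to 2 higher and 1 to 3 lower. The log2 fold change of Mcam reversed within the fixed-length type (0.18), and was -0.40 to 0.18 when each library was left out, positive without mutant 3 alone. Over all genes 2537 were called (53.1% higher), against 400 without the term (67.5% higher), 1336 with limma on TPM (63.2% higher), 3868 with DESeq2 (43.7% higher), and 1294 to 3034 without one library (52.3% to 63.8% higher). The cause was not tested. Of the 32 named genes, 31 kept their direction whichever library was left out, the exception being Mcam, and 22 of 26 called ones kept the call. The fits without the term that left out a library were added after the data were seen. No paired analysis was possible because the labels give no replicate numbers that the genotypes share, and the numbers 1 to 3 used here only follow the order of deposition within a genotype.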

Other observations

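Some related genes outside the rule for named genes also passed the test with the type term, and are named here after their values were seen. Gap43, a growth cone protein, had a log2 fold change of -1.14 (adjusted p = 0.000931, edgeR). Ezr, a linker of membrane proteins to actin, had -1.55 (adjusted p = 0.0111), with -2.08 in the fixed-length type and -0.99 in the estimated-length type. Of its relatives in the same list, Rdx went the other way (0.44, adjusted p = 0.0332) and Msn was not called (0.06, adjusted p = 0.902). St8sia2, which adds polysialic acid to NCAM, had 0.53 (adjusted p = 0.00639). Gfra1, a receptor of GDNF with which NCAM can pair, had 1.40 (adjusted p = 0.0135), with 5.44 CPM on average in mutants and 2.11 CPM in controls. Gap43, Ezr, St8sia2 and Gfra1 were not called without the type term, where adjusted p was 0.129 for Gfra1 and at least 0.549 for the others. Whether these 4 calls hold with a library left out is not given here. The log2 fold change of Gfra1 was 1.01 in the fixed-length type and 1.76 in the estimated-length type.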
